A study of Homo sapiens with 5 samples.

Results

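CIP2A siRNA was compared with control siRNA in MDA-MB-231, a long-established breast cancer cell line of the triple-negative type. The comparison used 2 of the 5 libraries of the study, named siCIP2A and siNT, with 1 library each and no replicate. The cells were grown in IMDM with serum, and the study's design text states a siRNA exposure of 48 hours. The treatment label of siCIP2A gives no time of its own, whereas that of siNT does. A further library, from cells given PBS for 12 hours, was used to see on which side of a culture labelled with no siRNA each siRNA library lay. It differs from siNT both in treatment and in labelled time. The remaining libraries, SET siRNA (siSET) for 48 hours and the SET antagonist OP449 at 1 μM for 12 hours, serve below for 1 sequence comparison. Each symbol was represented by its transcript of highest mean across the 5 libraries, for 10596 genes in all. Of these, 6102 had a mean of at least 50 scaled counts over siCIP2A and siNT, and 3015 had a mean of at least 500 and are called deeply counted.

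CIP2A is an endogenous inhibitor of protein phosphatase 2A (PP2A). PP2A is a family of serine/threonine phosphatases in which a scaffold subunit, a catalytic subunit and 1 of many regulatory subunits form the enzyme. PP2A removes phosphates from kinases of growth signalling and from the transcription factor MYC, and CIP2A is known for protecting MYC from PP2A-dependent degradation. CIP2A is often abundant in tumours, and siRNA lowers a protein by directing degradation of its messenger RNA. Neither the siRNA sequences nor their number is stated in the labels. The rows for CIP2A, SET and MYC were not analysed here, so the depletion of CIP2A was not measured.

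Levels are scaled counts, the authors' per-transcript signal on a common scale between libraries. Summed over the genes, 5602224 reads were recovered in siCIP2A, 5250308 in siNT and 5513739 in PBS, and a read was worth 1.10, 1.19 and 1.13 scaled counts. The marker genes fitted the labelled line in part. VIM was between 15669.7 and 19573 scaled counts and CD44, AXL and KRT7 were also abundant, while PGR, KRT5 and KRT14 were listed at 0. Other genes expected to be absent or low in this line were past the floor. ERBB2 was at 1063 in siCIP2A and 1049 in siNT, CLDN7 at 367 and 267, and EPCAM at 139 and 282. Of 22 marker genes of blood, endothelial, fat and stromal cells, 8 were at 0 in both siRNA libraries. All 22 summed to 2574 scaled counts in siCIP2A and 2457 in siNT, mostly from CD68 at 2401 and 2219. Without the 3 past the floor of 50 (CD68, CFD and COL1A1), the others summed to 30.9 in siCIP2A and 28.4 in siNT. That low sum follows from leaving out the expressed members. In bulk RNA, fewer cells of a type and less RNA per cell cannot be told apart.

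The differences were mostly moderate and were found at every depth. Of the 6102 genes, 29 (0.475%) stood at least 2-fold higher in siCIP2A than in siNT and 39 (0.639%) at least 2-fold lower. At 1.5-fold, 168 (2.75%) were higher and 203 (3.33%) lower. Among the 3015 deeply counted genes, a 1.5-fold excess was found for 29 (0.962%) and a deficit of that size for 58 (1.92%). The median log2 fold of all genes was 0.02. Folds are on log2(value + 1), and each is followed by the 95% exact interval of the ratio from the reads of the 2 libraries. That interval covers counting error only, and there is no replicate check for any difference. Among genes above 5000 scaled counts the median interval reached 0.05 on either side of the log2 ratio, against 0.53 for genes between 50 and 100.

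The control siRNA library was itself moderately different from PBS. Between siNT and PBS, 99 of 6076 genes (1.63%) were higher by at least 1.5-fold and 85 (1.4%) lower, and 36 of 3016 deeply counted genes (1.19%) differed by 1.5-fold either way. The same counts for siCIP2A were 87 of 3015 (2.89%) against siNT and 102 of 3006 (3.39%) against PBS. Of the 58 deeply counted lower genes, 33 were also at least 1.5-fold below PBS, 24 lay below PBS by less, and 1 (SEMA7A) lay above it. Among the 29 higher genes, 8 stood at least 1.5-fold above PBS as well, 19 lay above it by less, and 2 lay below it. Over all deeply counted genes, 33 (1.09%) were 1.5-fold lower than both controls and 8 (0.265%) higher than both. In 41 of the 58 lower genes siNT exceeded PBS, and in 25 of the 29 higher genes it was below PBS, a direction that choosing genes by their ratio to siNT favours.

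**Figure D1:**
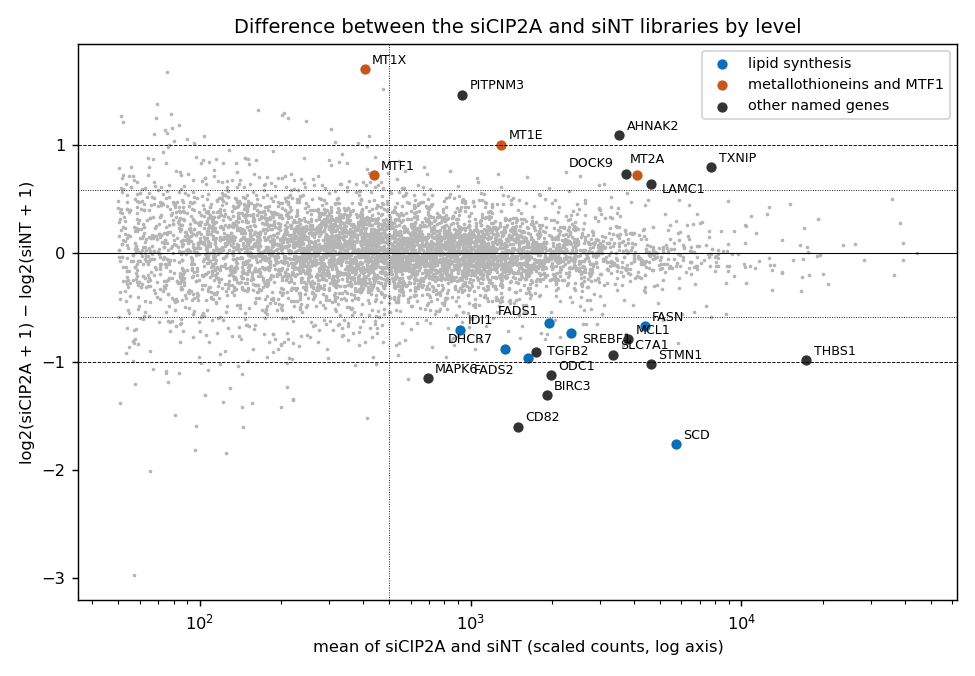
Each point is 1 of the 6102 genes, with its mean over siCIP2A and siNT in scaled counts on a log axis and its log2 difference on the vertical axis. Dashed lines mark 2-fold, dotted horizontal lines 1.5-fold and the dotted vertical line 500 scaled counts. SCD at -1.76 and CD82 at -1.60 stand lowest among the deeply counted genes, and PITPNM3 at 1.46 stands highest.

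SCD, the desaturase that makes monounsaturated fatty acids, was the lowest deeply counted gene. Its level was 2607 scaled counts in siCIP2A, 8853 in siNT and 14804 in PBS, a log2 fold of -1.76 (-1.83 to -1.70) against siNT and -2.51 against PBS. CD82, a tetraspanin known as a metastasis suppressor, was at 742 in siCIP2A, 2256 in siNT and 1983 in PBS, a log2 fold of -1.60 (-1.73 to -1.48). The 2 controls were close to each other for CD82, and only siCIP2A stood apart. BIRC3, an inhibitor of apoptosis protein and ubiquitin ligase, was at 1098 in siCIP2A, 2721 in siNT and 2501 in PBS, a log2 fold of -1.31 (-1.42 to -1.20). STMN1, which encodes the microtubule-destabilising protein stathmin, was at 3049.8 in siCIP2A, 6204 in siNT and 7732 in PBS, a log2 fold of -1.02 (-1.09 to -0.96). ODC1, ornithine decarboxylase, the first enzyme of polyamine synthesis, was at 1248 in siCIP2A, 2726 in siNT and 2319 in PBS, a log2 fold of -1.13 (-1.23 to -1.02). MAPK6, the atypical MAP kinase ERK3, was at 431 in siCIP2A, 959.9 in siNT and 716 in PBS. In each of these 6 genes siCIP2A lay at least 1.5-fold below both controls. On hg19 the transcript of CD82 spans chromosome 11 from 44587141 to 44641313, that of BIRC3 chromosome 11 from 102188194 to 102208464, that of STMN1 chromosome 1 from 26226609 to 26232993 and that of ODC1 chromosome 2 from 10580508 to 10588453.

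For other deeply counted lower genes siNT stood furthest from the remaining libraries. THBS1, the matrix glycoprotein thrombospondin 1, was at 11644 in siCIP2A, 23088 in siNT and 15579 in PBS, a log2 fold of -0.99 (-1.02 to -0.95) against siNT but -0.42 against PBS. ASB2, a substrate adaptor of a ubiquitin ligase, was at 362 in siCIP2A, 809 in siNT and 439.8 in PBS. IL24, a secreted cytokine, was at 552 in siCIP2A, 1074 in siNT and 605 in PBS. NOG, the BMP antagonist noggin, was at 786 in siCIP2A, 1379 in siNT and 908 in PBS. For the last 3 genes siNT was at least 1.5-fold above PBS and siCIP2A lay near PBS. The 20 lowest deeply counted genes were between 1.77-fold and 3.39-fold lower than siNT. All 20 lay below PBS, and 14 of them by at least 1.5-fold.

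The other genes of these 20 cover transport, signalling and adhesion. TGFB2, a TGF-beta ligand, was at 1214 in siCIP2A, 2280.2 in siNT and 2480.2 in PBS, a log2 fold of -0.91 (-1.02 to -0.80). SLC11A2, the divalent metal transporter that takes up iron, was at 368 in siCIP2A, 708 in siNT and 609.9 in PBS, a log2 fold of -0.94 (-1.14 to -0.75). ATP2B1, a calcium pump of the plasma membrane, was at 2618 in siCIP2A, 4713 in siNT and 3699 in PBS, a log2 fold of -0.85 (-0.92 to -0.77). CDK2AP1, a CDK2-binding protein, had a log2 fold of -0.85 against siNT and -0.70 against PBS. WSB2, a SOCS-box protein, stood at -0.89 against siNT and -1.02 against PBS, and NUCB2, a calcium-binding nucleobindin, at -0.82 and -0.94. CMTM4 and DMBT1 stood at -0.87 and -0.84 against siNT, and at -0.54 and -0.47 against PBS. Beyond the 20, deeply counted genes at least 1.5-fold below both controls included MCL1, an anti-apoptotic BCL2 family member, at 2801 in siCIP2A, 4847 in siNT and 4339 in PBS. ACTR3, a subunit of the actin-nucleating Arp2/3 complex, was at 2703 in siCIP2A, 4669 in siNT and 4354 in PBS. RAB1A, a GTPase of transport from the endoplasmic reticulum to the Golgi, was at 1364 in siCIP2A, 2275 in siNT and 2106 in PBS. In these last 3 genes the controls were closer to each other than either was to siCIP2A.

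The higher genes were fewer, and in most of them siNT lay below PBS. PITPNM3, a membrane-associated member of the phosphatidylinositol transfer protein family, was at 1366 in siCIP2A, 494 in siNT and 803 in PBS, a log2 fold of 1.46 (1.31 to 1.63) against siNT and 0.77 against PBS. AHNAK2, a very large scaffold protein, was at 4814 in siCIP2A, 2261 in siNT and 1442 in PBS, a log2 fold of 1.09 (1.01 to 1.17) against siNT and 1.74 against PBS. TXNIP, an inhibitor of thioredoxin and of glucose uptake, was at 9826 in siCIP2A, 5663 in siNT and 6176 in PBS, a log2 fold of 0.80 (0.74 to 0.85). For TXNIP the controls were close to each other, and siCIP2A lay above both. DOCK9, an exchange factor for the GTPase CDC42, was at 4682 in siCIP2A, 2819 in siNT and 2048 in PBS, a log2 fold of 0.73 (0.66 to 0.80). SLC37A2, a sugar-phosphate transporter, was at 2820.1 in siCIP2A, 1672 in siNT and 1706 in PBS, a log2 fold of 0.75 (0.66 to 0.85). TPP1, a lysosomal peptidase, was at 3138 in siCIP2A, 1914 in siNT and 2071 in PBS, a log2 fold of 0.71 (0.62 to 0.80). DSG2, a desmosomal cadherin, and PPP1R15A, a regulatory subunit of protein phosphatase 1, stood at 0.64 and 0.63 against siNT and at 0.83 and 0.74 against PBS. These 8 genes are the deeply counted genes at least 1.5-fold above both controls. On hg19 the transcript of PITPNM3 spans chromosome 17 from 6354584 to 6459877 and that of AHNAK2 chromosome 14 from 105403591 to 105444694.

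The reverse held where siNT alone was low. PPP6R3 (SAPS3 in the table), a regulatory subunit of the PP2A-like phosphatase PP6, was at 1995 in siCIP2A, 1224 in siNT and 2458 in PBS. CYB5B, a mitochondrial cytochrome b5, was at 1304 in siCIP2A, 807 in siNT and 1458 in PBS. Both stood higher than siNT, at 0.70 and 0.69, and lower than PBS, at -0.30 and -0.16. TXNDC12, a thioredoxin-like protein of the endoplasmic reticulum, was at 718 in siCIP2A, 424 in siNT and 707 in PBS. RFFL, a ubiquitin ligase, was at 658 in siCIP2A, 408 in siNT and 628 in PBS. In these 4 genes the siNT library, and not siCIP2A, was the one that stood apart. Of the 20 highest deeply counted genes, between 1.55-fold and 2.76-fold above siNT, 18 lay above PBS and 7 of them by at least 1.5-fold. CSPG4, the proteoglycan NG2, at 0.85, ALDH3B1, an aldehyde dehydrogenase, at 0.80, PMP22, a myelin and junction protein, at 0.76, and the adhesion receptor ADGRG1 (GPR56 in the table) at 0.73 lay above PBS by 0.48, 0.45, 0.22 and 0.55 on the log2 scale.

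**Figure D2:**
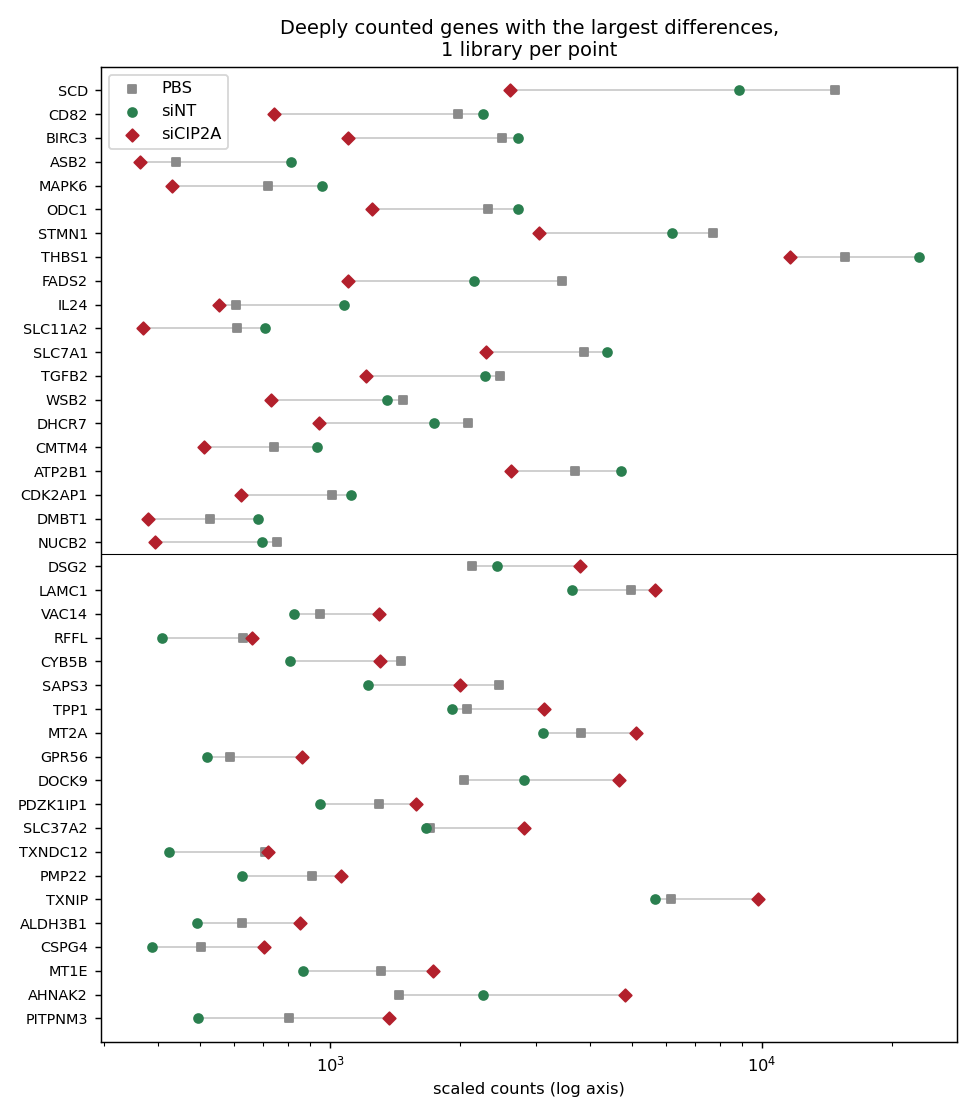
Scaled counts of the 20 lowest and 20 highest deeply counted genes in PBS, siNT and siCIP2A, 1 library per point, on a log axis. In all 20 lower genes siCIP2A is the leftmost point, whereas in the lower panel the siCIP2A point lies left of PBS for SAPS3 and CYB5B.

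Genes of lipid synthesis recurred among the deeply counted lower genes. Cells make fatty acids and cholesterol from acetyl-CoA, and SREBP transcription factors are known to drive both sets of enzymes. Of 14 genes of fatty acid synthesis and desaturation past the floor, 10 were lower in siCIP2A than in siNT and 4 higher, where 47.3% of all genes were lower. Of the 14, 5 were at least 1.5-fold lower and none higher, where 3.33% and 2.75% of all genes were, and the median was -0.28. FADS2, the delta-6 desaturase, was at 1102 in siCIP2A, 2151 in siNT and 3446 in PBS, a log2 fold of -0.96 (-1.08 to -0.85). FADS1, the delta-5 desaturase, was at 1515 in siCIP2A, 2363 in siNT and 3253 in PBS, a log2 fold of -0.64 (-0.74 to -0.54). FASN, the fatty acid synthase, was at 3389 in siCIP2A, 5412 in siNT and 7297 in PBS, a log2 fold of -0.68 (-0.74 to -0.61). SREBF1, the gene of the SREBP1 transcription factor, was at 1763 in siCIP2A, 2931 in siNT and 3201 in PBS, a log2 fold of -0.73 (-0.82 to -0.64). In all of these, and in LPIN1 at -0.54, siNT already lay below PBS and siCIP2A lay lower still. The earlier enzymes differed less: ACACA, acetyl-CoA carboxylase, stood at -0.15 (-0.25 to -0.05) and ACLY, which supplies cytosolic acetyl-CoA, at -0.14 (-0.20 to -0.07). GPAM, which starts glycerolipid synthesis, stood at 0.40.

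Of 10 genes of sterol and mevalonate synthesis, 9 were lower in siCIP2A than in siNT, 3 of them by at least 1.5-fold, with a median of -0.24. Of all genes, 47.3% were lower and 3.33% by at least 1.5-fold. All 10 lay below PBS, with a median of -0.46, and siNT lay below PBS for 9 of the 10. DHCR7, the final reductase of cholesterol synthesis, was at 943 in siCIP2A, 1739.8 in siNT and 2085 in PBS, a log2 fold of -0.88 (-1.01 to -0.76). IDI1, the isomerase of isopentenyl diphosphate, was at 695 in siCIP2A, 1133 in siNT and 1589 in PBS, a log2 fold of -0.71 (-0.85 to -0.56). FDPS stood at -0.05 and PMVK at 0.33. By their medians both lists ran in the order PBS, siNT, siCIP2A from high to low. The lists of this report were chosen with earlier results of these data known, and the lower level of sterol genes was among them. A RefSeq promoter sequence, 250 bases before to 50 after the start, was found for 33 genes of the fatty acid, sterol and cholesterol uptake lists. FASN was not among them. None of the 33 held the sterol-element letters TCACNCCAC on either strand, against 1.17% of 5230 promoters of genes past the floor. With letters this rare, none in 33 is the usual outcome, so it does not set these lists apart from other genes. The letters CCAAT were in 51.5% of the 33 and in 38.2% of the 5230.

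Metallothionein genes were higher in siCIP2A than in siNT. Metallothioneins are small cysteine-rich proteins that bind zinc and copper, and MTF1 is the zinc-sensing factor that activates them. MT1X was at 622 in siCIP2A, 191 in siNT and 287 in PBS, a log2 fold of 1.70 (1.45 to 1.97) against siNT and 1.11 against PBS. MT1E was at 1730.3 in siCIP2A, 864 in siNT and 1313 in PBS, a log2 fold of 1.00 (0.87 to 1.13) and 0.40. MT2A was at 5116 in siCIP2A, 3109 in siNT and 3818 in PBS, a log2 fold of 0.72 (0.65 to 0.79) and 0.42. MTF1 itself was at 547 in siCIP2A, 332 in siNT and 359 in PBS, a log2 fold of 0.72. In all 4 genes siCIP2A was the highest of the 3 libraries and siNT the lowest. Of 6 genes past the floor on this list, 5 were higher and 4 of them by at least 1.5-fold, against 52.7% and 2.75% of all genes. The zinc exporter SLC30A1 stood at -0.05 and the zinc importer SLC39A1 at 0.16. Metallothionein genes are near-identical copies, and nothing states how reads shared between them were counted, so the values of single copies are uncertain.

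Promoters of MT1X and MT2A were in the RefSeq promoter table (GRCh38). Some of their matches to the letters of the metal response element core are shown because both genes were higher. The core letters TGCNCNC, searched on both strands, occurred 4 times in the MT1X promoter and 8 times in that of MT2A. At least 1 match was found in 63.9% of the 5230 promoters, at least 4 in 3.27% and at least 8 in 0.0956%. The capitals mark the match, and the position of its first base is counted from the start site on chromosome 16.
MT1X, -150: cccgcggTGCGCCCggcgctg
MT1X, -122: gggttgcTGCACCCggcccag
MT1X, -53: gggcctcTGCGCCCggccctc
MT2A, -153: agccgggTGCGCCCggcccag
MT2A, -54: gggctttTGCACTCgtcccgg
The other matches, those of MT2A at -139 and -8 on the same strand among them, are not shown. A match is a description of the sequence and not of binding.

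Genes tied to MYC did not move as 1 group. Of 28 genes that MYC is known to induce, 20 were higher in siCIP2A than in siNT and 8 lower, where 52.7% of all genes were higher. Only 1 was at least 1.5-fold higher and 1 lower, where 2.75% and 3.33% of all genes were, and the median was 0.08. Against PBS, 12 were higher and 16 lower, with a median of -0.01. The gene at least 1.5-fold lower was ODC1. The higher one was PRMT3, a protein arginine methyltransferase, at 521 in siCIP2A, 329 in siNT and 486 in PBS, close to PBS at 0.10. CDK4, the cyclin D kinase, was at 2138 in siCIP2A, 1477 in siNT and 1908 in PBS, a log2 fold of 0.53 (0.43 to 0.64) against siNT and 0.16 against PBS. Abundant members hardly differed: LDHA, lactate dehydrogenase, stood at 0.08 and ENO1, enolase, at 0.00. Of 11 genes that MYC is known to repress, 7 were higher and 4 lower, with a median of 0.28 against siNT and 0.08 against PBS. By at least 1.5-fold 3 were higher and 2 lower, where 2.75% and 3.33% of all genes were. TXNIP, described above, and the cell-cycle inhibitor CDKN1C at 0.62 were at least 1.5-fold higher, as was BTG2 at 0.61, from 56 and 34 reads. THBS1 and the CDK inhibitor CDKN2D, at 254 in siCIP2A, 401 in siNT and 519 in PBS, were at least 1.5-fold lower. GADD45A, a DNA damage and stress gene, stood at 0.44 (0.27 to 0.61) and FTH1, ferritin heavy chain, at 0.26 (0.22 to 0.30).

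PP2A genes showed small differences in both directions. Of 20 subunits, regulators and inhibitors, 8 were higher and 12 lower, and the median was -0.07. Of all genes, 47.3% were lower, 3.33% by at least 1.5-fold, and 2.75% were at least 1.5-fold higher. Only STRN3, a regulatory subunit of the striatin family, was past 1.5-fold, at 314 in siCIP2A, 485 in siNT and 379 in PBS, a log2 fold of -0.63 against siNT and -0.27 against PBS. ANP32E, a relative of the PP2A inhibitor ANP32A, was at 1615 in siCIP2A, 2359.6 in siNT and 2553 in PBS, a log2 fold of -0.55 (-0.64 to -0.45). ANP32A stood at 0.22 (0.10 to 0.33) against siNT and 0.03 against PBS. Of the scaffold subunits, PPP2R1A was at 3550.0 in siCIP2A, 4039 in siNT and 3824 in PBS, a log2 fold of -0.19 (-0.26 to -0.12). PPP2R1B was at 806 in siCIP2A, 640.0 in siNT and 821 in PBS, and stood at 0.33 (0.17 to 0.50) against siNT but at -0.03 against PBS. The methyltransferase LCMT1 and the methylesterase PPME1, which set the methyl group on the catalytic subunit, stood at 0.37 and -0.17 against siNT, and at -0.15 and -0.29 against PBS.

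Transporters of amino acids and ions included several deeply counted lower genes. SLC7A1, the main importer of arginine and lysine, was at 2291 in siCIP2A, 4391 in siNT and 3870.0 in PBS, a log2 fold of -0.94 (-1.02 to -0.86). SLC7A5, the exchanger of large neutral amino acids, was at 4066 in siCIP2A, 6212 in siNT and 5736 in PBS, a log2 fold of -0.61 (-0.67 to -0.55), and its partner SLC3A2 stood at -0.25 (-0.35 to -0.16). For both SLC7A genes the controls were closer to each other than to siCIP2A. Of 17 amino acid transporters, 10 were lower and 7 higher, not far from the 47.3% lower of all genes. By at least 1.5-fold 3 were lower and 1 higher, where 3.33% and 2.75% of all genes were. The median was -0.16, but -0.03 among the deeply counted members. SLC38A1 and SLC7A6 stood at 0.35 (0.27 to 0.42) and 0.34 (0.21 to 0.47). Of 24 carriers of sugars, ions and metals, 17 were lower than siNT, where 47.3% of all genes were, with a median of -0.14, but the median against PBS was 0.06, and siNT lay above PBS for 19. ATP2A2, the calcium pump of the endoplasmic reticulum, was at 4873 in siCIP2A, 7196 in siNT and 5817 in PBS, a log2 fold of -0.56 (-0.62 to -0.51). The glucose transporter SLC2A3 stood at 0.53 (0.34 to 0.71) and SLC2A1 at -0.16 (-0.21 to -0.12).

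Inflammatory genes were lower than siNT, and less so than PBS. NF-kB is a transcription factor family that drives cytokine, adhesion and survival genes. Of 19 genes on this list, 14 were lower, 5 of them by at least 1.5-fold, against 47.3% and 3.33% of all genes. The other 5 were higher, 1 of them by at least 1.5-fold, against 2.75% of all genes. The median was -0.30 against siNT and -0.13 against PBS. siNT lay above PBS for 14 of the 19. CSF3, the cytokine G-CSF, shows the extreme: 124 in siCIP2A, 319 in siNT and 69.1 in PBS, so siCIP2A was below siNT and above PBS. IL11 at 42.0, 151 and 180.2 and VCAM1, an adhesion molecule, at 47.5, 146 and 125 scaled counts in siCIP2A, siNT and PBS were below both controls. Among the deeply counted members, BIRC3 and IL24 (above) were the lowest. NFKB2 and RELB, subunits of the alternative pathway, both stood at -0.40, BIRC2 at -0.29 (-0.39 to -0.19), ICAM1 at -0.21 (-0.29 to -0.13), and RELA, the main subunit, at 0.17 (0.06 to 0.27).

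Interferon-stimulated genes had no common direction at depth. Of 36 genes, 23 were lower and 9 of them by at least 1.5-fold, against 47.3% and 3.33% of all genes, with a median of -0.11. Against PBS, 19 were higher and 17 lower, with a median of 0.02. Among the 17 deeply counted members the median was 0.04. Among the lower members, IFI44 had 125 in siCIP2A, 295 in siNT and 164 in PBS, and RSAD2 had 34.2, 80.6 and 40.8. ISG15, a ubiquitin-like modifier, was at 961 in siCIP2A, 1458 in siNT and 1063 in PBS, a log2 fold of -0.60 (-0.73 to -0.48), and IFIT3 stood at -0.44 (-0.57 to -0.31). IFI16, a DNA sensor, and STAT2, a subunit of the interferon-activated factor, stood at 0.49 (0.37 to 0.61) and 0.41 (0.25 to 0.57).

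Of 23 genes of the TGF-beta pathway, 17 were lower than siNT and 5 of them by at least 1.5-fold, where 47.3% and 3.33% of all genes were. The other 6 were higher, 2 of them by at least 1.5-fold, where 2.75% of all genes were. ANGPTL4, at 1.11, was the highest. The median was -0.11 against siNT and -0.06 against PBS. Beside TGFB2, the ligand TGFB1 stood at -0.25 (-0.41 to -0.09). The signal transducer SMAD3 stood at -0.15 (-0.22 to -0.08) against siNT and 0.12 against PBS. The target CCN1 (CYR61 in the table) was at 11425 in siCIP2A, 14435 in siNT and 13011 in PBS, a log2 fold of -0.34 (-0.38 to -0.30). LTBP1, which tethers the latent ligand to the matrix, stood at 0.57.

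Laminin chains were among the higher matrix genes. Laminins are trimers of the basement membrane. LAMC1 was at 5661 in siCIP2A, 3635 in siNT and 4973 in PBS, a log2 fold of 0.64 (0.57 to 0.70). LAMA3 was at 1689 in siCIP2A, 1183 in siNT and 1429 in PBS, a log2 fold of 0.51 (0.40 to 0.63). LAMB3 stood at -0.12 (-0.17 to -0.06) against siNT and 0.27 against PBS. Of 20 mesenchymal and matrix genes, 13 were higher and 7 lower, with a median of 0.13, where 52.7% of all genes were higher. By at least 1.5-fold 3 were higher and 2 lower, where 2.75% and 3.33% of all genes were. EFEMP1, a fibulin, was at 416 in siCIP2A, 726 in siNT and 669 in PBS, a log2 fold of -0.80 (-0.99 to -0.62). ZEB2, a repressor of epithelial genes, was at 157 in siCIP2A, 87.7 in siNT and 124 in PBS, and its relative ZEB1 stood at 0.25 (0.09 to 0.40).

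Most epithelial genes were lower than siNT, while their median was near that of PBS. Of 24 junction and keratin genes, 19 were lower, 2 of them by at least 1.5-fold, against 47.3% and 3.33% of all genes, and the median was -0.28. The other 5 were higher, 1 of them by at least 1.5-fold, against 2.75% of all genes. In siNT the median of this list lay 0.26 above PBS, and in siCIP2A it lay -0.05 from PBS. EPCAM, an epithelial adhesion protein, was at 139 in siCIP2A, 282 in siNT and 202 in PBS. Keratins KRT80 at -0.46 (-0.52 to -0.39) and KRT7 at -0.31 (-0.38 to -0.25) were closer to PBS, at -0.14 and -0.07. KRT19 at -0.25 and KRT18 at -0.15 lay further below PBS than below siNT, at -0.27 and -0.33, and DSG2 was higher than both.

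Genes that glucocorticoids are known to induce spread in both directions. Of 12 genes, 5 were at least 1.5-fold lower and 3 higher, against 3.33% and 2.75% of all genes. The median was -0.29, but -0.11 among the 5 deeply counted members. RASD1, a Ras-related GTPase, was at 12.1 in siCIP2A, 102 in siNT and 72.5 in PBS, from 11, 86 and 64 reads. CRISPLD2, a secreted protein, was at 248 in siCIP2A, 423 in siNT and 317 in PBS, and SCNN1A, a subunit of the epithelial sodium channel, at 227, 358 and 319. The 3 higher genes were MT1X, MT2A and ANGPTL4, a secreted lipase inhibitor with 104, 47.4 and 18.1 scaled counts, and the first and second of these also stand on the metallothionein list. PER1, a clock gene, stood at -0.40 and DDIT4, an inhibitor of mTOR, at -0.11.

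**Figure D3:**
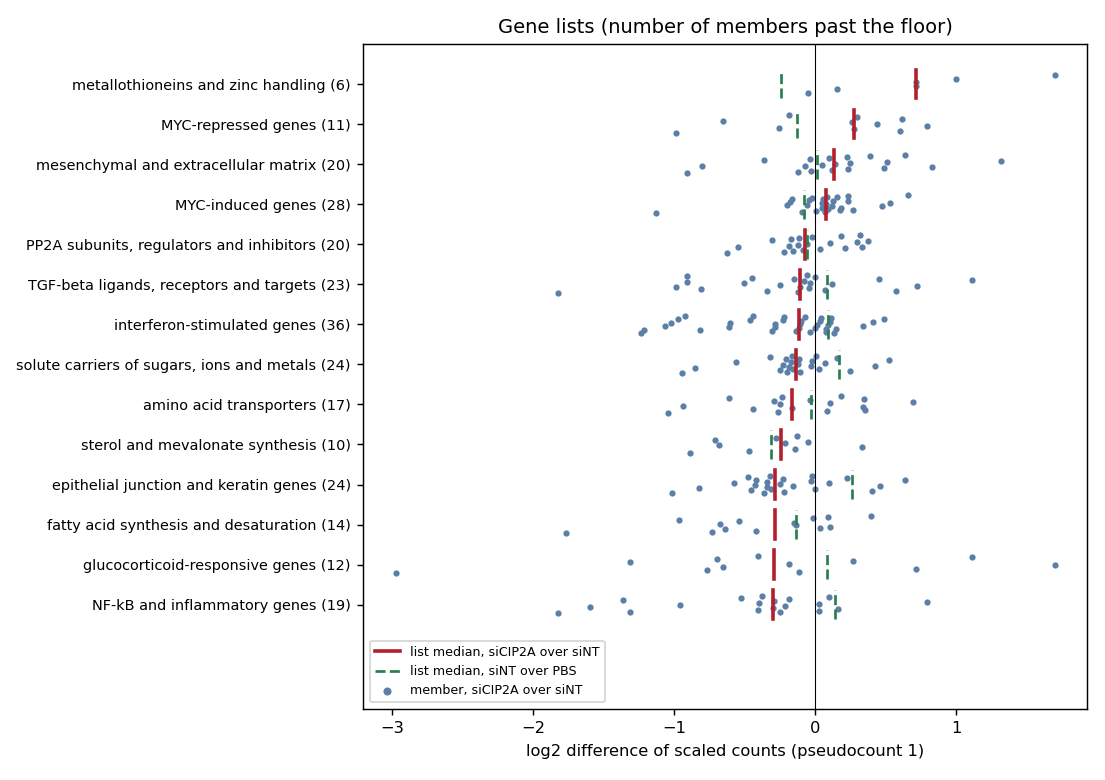
Log2 differences of the members of 14 gene lists past the floor (points, siCIP2A over siNT), with the list median (solid bars) and the median of siNT over PBS (dashed bars). The metallothionein list has the highest median at 0.72, and the NF-kB list has the lowest at -0.30, while its dashed bar lies above 0.

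The remaining 42 lists had medians between -0.12, for the circadian clock, and 0.14, for cholesterol uptake and transport. Of the 15 genes of cholesterol uptake and transport, 8 were higher, none by 1.5-fold, and 7 lower, 3 of them by at least 1.5-fold. Of all genes, 2.75% were higher and 3.33% lower by that much. The mean of this list was -0.17, on the other side of 0 from its median. Small but broad differences appeared in some of the 42 lists. Of 40 genes of the lysosome and autophagy, 29 were higher in siCIP2A than in siNT, against 52.7% of all genes, and the median was 0.13, both against siNT and against PBS. In this list 24 of the 40 genes lay above both controls, against 38.7% of all genes. TPP1 is on this list, and 3 other members picked after their values were seen show the abundant end. PSAP, the saposin precursor, was at 17439 in siCIP2A, 12715 in siNT and 11829.8 in PBS. LAMP1, a lysosomal membrane protein, was at 3897 in siCIP2A, 2725 in siNT and 3337 in PBS. NPC2, which exports cholesterol from the lysosome, was at 2767 in siCIP2A, 2155 in siNT and 2581 in PBS. LAPTM5, a lysosomal membrane protein of the same list, went the other way, at 214 in siCIP2A, 616 in siNT and 597 in PBS. Of 29 genes of the vesicle coats and carriers between endoplasmic reticulum and Golgi, 23 were lower, against 47.3% of all genes, and the median was -0.11. The only member past 1.5-fold was RAB1A, which was lower, close to the share of all genes. Of 29 proteasome genes, 19 were lower, against 47.3% of all genes, with a median of -0.09 and none past 1.5-fold. Of all genes, 3.33% were at least 1.5-fold lower and 2.75% higher. Ribosomal protein genes, with a median of 0.00, and oxidative phosphorylation genes, with a median of 0.05, hardly differed.

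Less abundant genes included the largest folds. At least 2-fold below both controls were 19 genes (0.311%), 18 of them with the PBS pair also past the floor. Besides genes named above, HID1 (C17orf28 in the table), a protein of secretory granule formation, was at 25.4 in siCIP2A, 105 in siNT and 114 in PBS. LIPG, endothelial lipase, was at 54.1, 197 and 251. CX3CL1, the chemokine fractalkine, was at 77.3, 209 and 192, and FPR1, the formyl peptide receptor, at 67.4, 177 and 161. ARTN, a ligand of the GDNF family, was at 125, 318 and 411. NRBF2, an autophagy factor, was at 108, 290.4 and 264, and SEMA6B, a semaphorin, at 245, 504 and 529. Each of these lay below both controls, and for HID1, CX3CL1, FPR1, NRBF2 and SEMA6B the controls were within 0.15 of each other on the log2 scale. At least 2-fold above both were 11 genes (0.18%). PTPRR, a tyrosine phosphatase of MAP kinases, was at 116 in siCIP2A, 35.6 in siNT and 47.6 in PBS. CD22, a sialic acid-binding receptor, was at 704, 245 and 334. ITGB3, the integrin beta 3 subunit, was at 112, 45.0 and 54.4, and LCP1, the actin-bundling plastin, at 117, 51.0 and 29.5. CYP1A1, the aryl hydrocarbon receptor target, was at 121, 58.1 and 19.3. For CYP1A1, LCP1, ANGPTL4 and AHNAK2 siNT also lay above PBS.

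A short word recurred in the 3′ UTRs of the lower genes. siRNAs can lower other transcripts through short matches in 3′ UTRs. No siRNA sequence was available, so no match to a siRNA could be sought. Instead, all words of 6 bases in the 3′ UTRs were counted, a scan added after the data were seen. Of 5858 genes past the floor with a 3′ UTR in GENCODE release 29, 924 held GCTAGT. Of these carriers, 68 (7.36%) were at least 1.5-fold lower in siCIP2A than in siNT, against 2.45% of the 4934 genes without the word. Among 4074 words with at least 100 carriers, GCTAGT had the widest gap of this kind. It ranked 3 for the share lower than both controls, 7 for the mean log2 difference against siNT and 1 for that against PBS. The word was picked from these data as the leading one, so its excess is a description without a test. A selection of the sites in lower genes described above, 1 per gene, is shown as 24-base windows on the transcript strand, with the word in capitals.
SCD: ccttggtttGCTAGTatcttgggt
STMN1: gggttaatgGCTAGTactgtattg
TGFB2: gggtgaagtGCTAGTatgcaagtg
SLC11A2: gtaaaagctGCTAGTattctttta
ATP2B1: gatggacaaGCTAGTattcttgtc
ODC1: ttaattactGCTAGTtttgaaatg
MAPK6: ccataaattGCTAGTctgaaaggc
BIRC3: ccaacatctGCTAGTgttgtaaag
NRBF2: ggacgtaatGCTAGTtggcagtat
SLC7A5: aaagtagctGCTAGTgaaatggct
In the first 5 of these genes an A follows the word. BIRC3 and SLC11A2 each have 2 sites. The windows do not represent the flanks of all carriers: most have a T before the word, whereas 378 of the 924 carriers hold TGCTAGT. Sites left out include that of LIPG and the other site of BIRC3, each with a G before the word. The words lie at base 3252 of the 3901-base 3′ UTR of SCD, at base 281 of 914 in STMN1 and at base 77 of 756 in ODC1.

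The share of lower genes differed with the number of sites and with the flanking base. It was 6.31% of 745 genes with 1 site and 11.7% of 179 genes with 2 or more. It was 10.3% of 378 genes with TGCTAGT, 12.9% of 241 with GCTAGTA and 16.2% of 111 with TGCTAGTA, which contains both. The other bases before the word gave no such excess over all carriers, with 6.45% of 372 genes for AGCTAGT, 4.58% of 262 for GGCTAGT and 6.52% of 46 for CGCTAGT. Against PBS the carriers showed the same side, with 6.06% lower against 2.19% of the other genes. In the libraries without CIP2A siRNA the gap over all carriers was absent or small. It was 1.62% against 1.22% in siNT over PBS, 2.49% against 3.57% in siSET over PBS, and 1.52% against 1.99% in OP449 over PBS. For TGCTAGTA these 3 shares were 3.60%, 0.901% and 2.70%, from 4, 1 and 3 of the 111 genes. Over all genes with a 3′ UTR they were 1.28%, 3.40% and 1.91%. Among deeply counted genes a gap stood in siNT over PBS too, from few genes. There 5 of 459 carriers (1.09%) were lower, against 7 of 2463 other genes (0.284%). In siSET and OP449 over PBS the deeply counted shares were 2.40% against 2.40% and 1.09% against 0.974%. The word was picked by its gap in siCIP2A over siNT, a choice that favours smaller gaps in comparisons without siCIP2A. The comparison of siCIP2A with PBS shares the siCIP2A library. The splits by sites, flanking base and length reuse the values that picked the word. Carriers had longer 3′ UTRs, with a median of 2817 bases against 850. Within each class of 3′ UTR length the carriers had more lower genes, from 10.9% against 2.53% under 1000 bases to 6.39% against 2.32% at 4000 bases or more. Of the 189 lower genes, 68 held the word, and so did 18 of the 161 higher genes, where 15.8% of all genes held it. Among deeply counted genes lower than both controls, 16 of 32 with a 3′ UTR held it.

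Carriers and non-carriers divided the lower genes by function only in part. CD82, THBS1, FADS2, FASN, SREBF1, DHCR7, IDI1 and SLC7A1 held no GCTAGT in the 3′ UTR used, and neither did the 19 PP2A genes and 23 epithelial genes with a 3′ UTR. Without its carriers SCD and HSD17B12, the fatty acid list had a median of -0.14. The NF-kB list without its 3 carriers had a median of -0.30. Without carriers the median of amino acid transporters was -0.03 and that of the glucocorticoid list -0.11. Without carriers, 24 genes were at least 2-fold lower and 135 at least 1.5-fold lower, against 39 and 203 with them. LAMC1 and SLC38A1, with 2 sites each, were higher in siCIP2A, so higher genes carry the word too. Whether matches to the siRNA contributed to these differences was not tested.

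Another word was more frequent among genes lower in siNT. Of 577 genes with AGCCTTA in the 3′ UTR, 2.95% were at least 1.5-fold lower in siNT than in PBS, against 1.10% of the other 5281, and 4.68% were higher in siCIP2A than in siNT, against 2.54%. Both comparisons share the siNT library. Its 6-base core GCCTTA ranked 3 of 4074 for a low mean log2 difference of siNT over PBS, and 46 for the gap in the share lower than PBS, at 2.15% against 0.972%. Against PBS, carriers of AGCCTTA were lower in siCIP2A in 1.91% and other genes in 2.90%. This word too was picked from these data.

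**Figure D4:**
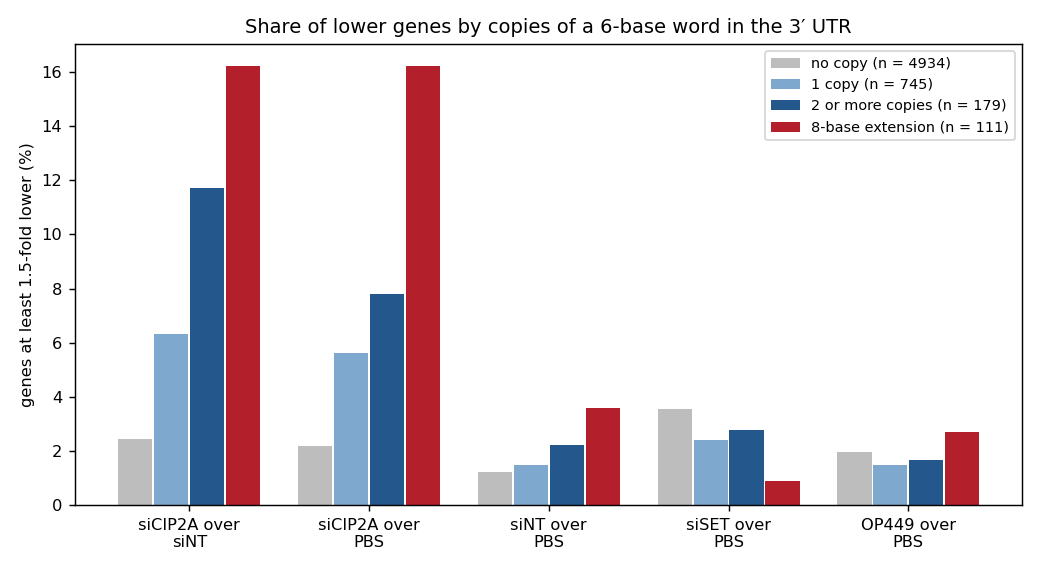
Share of genes at least 1.5-fold lower in 5 comparisons, by copies of the 6-base word in the 3′ UTR and for its 8-base extension. In both comparisons of siCIP2A the share is higher for carriers, reaching 16.2% for the extension, while the siSET and OP449 bars of 1 copy, at 2.42% and 1.48%, lie below those of no copy.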

How the data were processed

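RNA of MDA-MB-231 cells was reverse transcribed with oligo-dT and sequenced on an Illumina GAII, per the labels' protocols. The submitters' processing notes name hg19, CASAVA and Bowtie 1.0.0, without a step for each. How reads were counted and normalized, and whether strand was used, is not given in the labels, so overlapping and antisense genes cannot be told apart. The deposited table gives, for each RefSeq transcript, a signal that the authors scaled between libraries (scaled counts). Divided by the value of 1 read, 100% of the values in each library were whole within 0.001 reads, so whole reads were recovered. A value of 0 is compatible with 3 reads, or 3.31 scaled counts in siCIP2A, 3.56 in siNT and 3.40 in PBS.

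The table had 16383 transcript rows, 15739 of which matched a current symbol. It holds chromosomes 1 and 10 to 19 and part of 2, and genes elsewhere were not analysed here. With 1 library per group there was no test between conditions. Log2 folds used a pseudocount of 1, which understates folds of low genes, and intervals are 95% exact Clopper-Pearson intervals of reads without the pseudocount. Reads carry no molecular identifiers, so the intervals cover counting error only. The scripts were tested on simulated data. Libraries were grouped by their labels.

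Named genes were the 20 highest and 20 lowest deeply counted genes, those 2-fold from both controls, and, for lists whose median differed from that of all genes by at least 0.15 or with 25% of members past 1.5-fold, the 4 members with the largest folds and the deeply counted members whose interval excluded 0. The MYC and PP2A lists were always described. Some of the genes so selected are not reported here. Members of other sets (SEMA7A, MCL1, ACTR3, RAB1A, PPP1R15A, PSAP, LAMP1 and NPC2 among them) and members near 0 were named after their values were seen. The comparison, the lists and the rules were chosen with earlier results of these data known. The 3′ UTR scan was added after seeing the data, and its word was picked from several ways of ranking words, 4 of which are reported and 2 of which it led. Transcript sequences came from GENCODE release 29 and promoters from RefSeq, both on GRCh38 and used for sequence only. Alternatives were floors of 20, 200 and 500 and no floor, a pseudocount of 10, 3 rescalings, PBS as control, another choice of transcript, a fold with its interval, means of lists, and removal of length and GC trends. Alternatives added after seeing the data were an exact binomial test of the reads with Benjamini-Hochberg adjustment at 0.05 and the removal of genes with the leading word. Python 3.11.15, pandas 2.3.3, scipy 1.17.1 and statsmodels 0.14.6 were used.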

Additional observations from a re-analysis of the deposited data

How the results depend on the processing

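No paired analysis was possible because each group has 1 library and the labels carry no replicate numbers. The counts of genes depended on the floor: with a floor of 20, 51 were at least 2-fold higher and 59 lower. With a floor of 200, 13 and 14 were 2-fold and 79 and 115 were 1.5-fold higher and lower. With a floor of 500 these were 3, 7, 29 and 58, and with no floor 444, 433, 760 and 767. Without genes that hold GCTAGT, 24 were 2-fold and 135 were 1.5-fold lower. The other alternatives, PBS as control included, kept each count within 1.5 times. The 3 rescalings moved the median of all genes by -0.02 to 0.01 on the log2 scale. An exact binomial test of the reads, with Benjamini-Hochberg adjustment, passed 2055 of 6102 genes, 1017 higher and 1038 lower. It compares 2 libraries and not the conditions. Against PBS, with the floor applied to that pair, the list medians moved to -0.46 for sterol synthesis, -0.48 for fatty acid synthesis, 0.41 for metallothioneins, 0.075 for MYC-repressed genes, -0.12 for NF-kB genes and, with the opposite sign, 0.061 for carriers of sugars, ions and metals, -0.013 for MYC-induced genes and 0.023 for interferon-stimulated genes. The fatty acid median was -0.42 with a floor of 500, -0.14 without genes that hold the word and -0.14 after length and GC trends were removed. The amino acid transporter and glucocorticoid medians were -0.03 and -0.11 both with a floor of 500 and without genes that hold the word. The metallothionein median was 0.52 with no floor, and the mean of the MYC-repressed genes was 0.11. Against PBS, CSF3 at 0.83, COL1A1 at 0.22, CYB5B at -0.16 and PPP6R3 (SAPS3) at -0.30 had the opposite sign, as did 17 named genes under 1.5-fold from siNT. Besides CSF3, COL1A1, CYB5B and PPP6R3, 120 of the 176 named genes moved beyond their counting interval against PBS. None of the 176 did so under the rescalings, the pseudocount or the other transcript. Depth limits the scarce genes: between 50 and 100 scaled counts the interval reached 0.53 on either side of the log2 ratio.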

Other observations

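Genes of mitosis differed little between the siRNA libraries, and nearly all lay below PBS in both. Of 47 genes of mitosis and G2/M, 33 were lower in siCIP2A than in siNT and 14 higher, where 47.3% of all genes were lower. The median was -0.10, and none of the 47 was past 1.5-fold, where 3.33% of all genes were lower by that much. Against PBS all 47 were lower in siCIP2A and 46 in siNT, with medians of -0.41 and -0.36. CDC20, an activator of the anaphase-promoting complex, was at 1541 in siCIP2A, 2021 in siNT and 2602 in PBS, and MKI67, the proliferation marker Ki-67, at 9831, 10545 and 12971. Both were picked after their values were seen. Of 35 genes of DNA replication, 19 were higher and 16 lower than siNT, with a median of 0.01. Of 19 G1 cyclins, kinases and inhibitors, 13 were higher and 6 lower, with a median of 0.10 against siNT and 0.08 against PBS. By at least 1.5-fold 2 were higher and 2 lower, where 2.75% and 3.33% of all genes were. E2F7, a repressor of E2F target genes, was at 2352 in siCIP2A, 1545 in siNT and 1692 in PBS.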
